A study of Mus musculus with 14 samples.

Results

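The genes described here are 10 members of the insulin-like growth factor (IGF) axis, out of 18193 genes that the arrays of this study name by at least 1 probe set. They are the ligands Igf1 and Igf2, the receptor Igf1r, the insulin receptor substrates Irs1 and Irs2, and the binding proteins Igfbp2, Igfbp3, Igfbp4, Igfbp5 and Igfbp6. A gene was represented by the probe set that carried its symbol alone and had the highest mean over 14 arrays. All 10 genes were found, on 25 probe sets, and 6 of them had more than 1. Igf1 had 4 probe sets, Igf1r 5, Igf2 2, Igfbp3 2, Igfbp4 6 and Igfbp5 2.

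The RNA came from mammary glands of female C57BL/6 mice, 11 to 12 weeks old on arrival and kept for 1 week before use, whose ovaries were removed 7 days before treatment, so every group, controls included, lacked ovarian estrogen. Treatment was vehicle, 17-beta-estradiol (E2), one of 4 blockers of estrogen receptors (acolbifene, also EM-652.HCl; tamoxifen citrate; raloxifene; fulvestrant), or E2 together with a blocker, and mice were killed 3 h later. There were 2 arrays for each of vehicle, E2, acolbifene and E2+acolbifene, and 1 array for each of the other 6 groups. The glands of the 8 mice of a group were combined. Whether the 2 arrays of a group hold different pools is not stated in the labels; the raw-file names of the 2 arrays shared their middle part in 4 of 4 replicated groups, and 1 middle part was shared by E2+acolbifene and raloxifene, so which of these the raloxifene array holds rests on its label alone. For this reason a p-value here reflects array-to-array spread alone, possibly of technical origin.

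IGF1 and IGF2 are secreted peptides that bind the IGF1 receptor, a tyrosine kinase that passes the signal through IRS1 and IRS2 to the PI3K and AKT kinases and to the MAP kinases. Most IGF in tissue fluid and blood is held by binding proteins, which limit or prolong its access to the receptor and are themselves cut by proteases. In the mammary gland, IGF1 from the stroma acts with growth hormone and estrogen in the growth of the ducts, and IGFBP5 is known for its rise when the gland regresses after lactation. In human breast cancer cells, estrogen is known to raise IRS1 and the IGF1 receptor.

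The promoter windows of Irs1 and Igfbp3 are shown because these were the members that passed a test, and that of Irs2 because it is the sister substrate of Irs1. They come from RefSeq, build GRCm38.p6, run from 250 bases before to 50 bases after the annotated start, and are written 5′ to 3′ on the gene's strand, which is the minus strand for all 3. Capitals mark the GC box GGGCGG and the E-box CACGTG, searched on both strands. The windows are chr1:82291390-82291689 for Irs1, chr8:11008880-11009179 for Irs2 and chr11:7213874-7214173 for Igfbp3.
Irs1: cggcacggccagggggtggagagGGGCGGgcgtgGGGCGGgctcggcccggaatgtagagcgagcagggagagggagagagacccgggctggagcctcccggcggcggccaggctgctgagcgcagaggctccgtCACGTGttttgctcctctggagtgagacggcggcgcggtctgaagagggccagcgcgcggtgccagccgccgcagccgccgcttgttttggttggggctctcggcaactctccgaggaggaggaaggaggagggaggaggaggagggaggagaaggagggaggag
Irs2: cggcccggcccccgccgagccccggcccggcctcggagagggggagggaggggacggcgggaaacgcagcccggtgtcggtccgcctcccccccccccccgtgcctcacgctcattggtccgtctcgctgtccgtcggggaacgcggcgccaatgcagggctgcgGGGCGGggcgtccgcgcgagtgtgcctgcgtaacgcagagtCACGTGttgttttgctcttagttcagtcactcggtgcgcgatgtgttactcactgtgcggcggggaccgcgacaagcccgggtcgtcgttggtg
Igfbp3: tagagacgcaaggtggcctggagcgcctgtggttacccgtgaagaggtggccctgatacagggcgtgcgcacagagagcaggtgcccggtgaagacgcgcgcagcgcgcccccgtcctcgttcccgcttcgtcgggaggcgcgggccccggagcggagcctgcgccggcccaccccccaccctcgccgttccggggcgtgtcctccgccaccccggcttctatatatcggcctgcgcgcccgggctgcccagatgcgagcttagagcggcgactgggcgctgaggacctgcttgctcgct

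The Irs1 window held 2 GC boxes, with first bases at -227 and -216 from the start, and an E-box at -115. The Irs2 window held 1 GC box at -85 and an E-box at -44, and the Igfbp3 window held neither motif. GC content was 71.3% in the Irs1 window, 72.0% in that of Irs2 and 71.7% in that of Igfbp3, against a median of 52.7% over all 32851 windows of the table. The 10 genes had 14 windows in all. A GC box was found in 6 of the 14 windows (35.7% of all windows), an E-box in 3, those of Irs1, Irs2 and Igfbp2 (7.15% of all), and the half-site of the estrogen response element, GGTCA, in 6 (40.5% of all). The full palindromic estrogen response element, which contains the half-site on both strands, was in 0 of the 14 windows and in 0.07% of all. These are matches of letters, and no binding was measured.

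All values are log2 levels made by the authors with RMA, which corrects background, normalizes between arrays and summarises probes. A difference of 1 on this scale is a doubling, and levels of different probe sets are not set against each other. Array medians lay between 7.16 and 7.23. Markers of adipocytes (11 genes), fibroblasts and matrix (15) and luminal (10) and basal (11) epithelium were above the dim level, the 40 percentile of mean level at 6.65, for every gene measured. The standard deviation over all probe sets was 1.97 and 1.98 on the vehicle arrays, 2.01 and 2.00 on the acolbifene arrays, 1.93 and 1.90 on the E2+acolbifene arrays and 1.88 on the E2+tamoxifen array, so E2+acolbifene had the narrowest spread of the 4 replicated groups and E2+tamoxifen the narrowest of all 14 arrays. The spiked-in hybridization controls had a mean of 9.86 to 10.04 on the single arrays and both E2 arrays, and of 10.23 to 10.41 on the other 6, a technical difference that cannot be told apart from E2 against vehicle or from E2+acolbifene against E2. The raw-file code R136 marked E2 array 1 and the 6 single arrays, and R137 the other 7. Pgr, the progesterone receptor and a classical estrogen target, was at 8.05 and 7.57 on the vehicle arrays, 10.59 and 10.55 on the E2 arrays, 10.55 on the array labelled E2+fulvestrant, 10.59 on that of E2+tamoxifen and 7.88 on that of fulvestrant alone. Krt4 and Greb1, which were also higher with E2 than with vehicle, were at 10.55 and 7.00 on the array labelled E2+fulvestrant and at 10.84 and 7.32 with E2+tamoxifen, against 10.95 and 10.38 (Krt4) and 6.94 and 7.02 (Greb1) on the E2 arrays. Both arrays were thus at the E2 level for these genes, and a block of E2 was not seen on them.

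**Figure D1:**
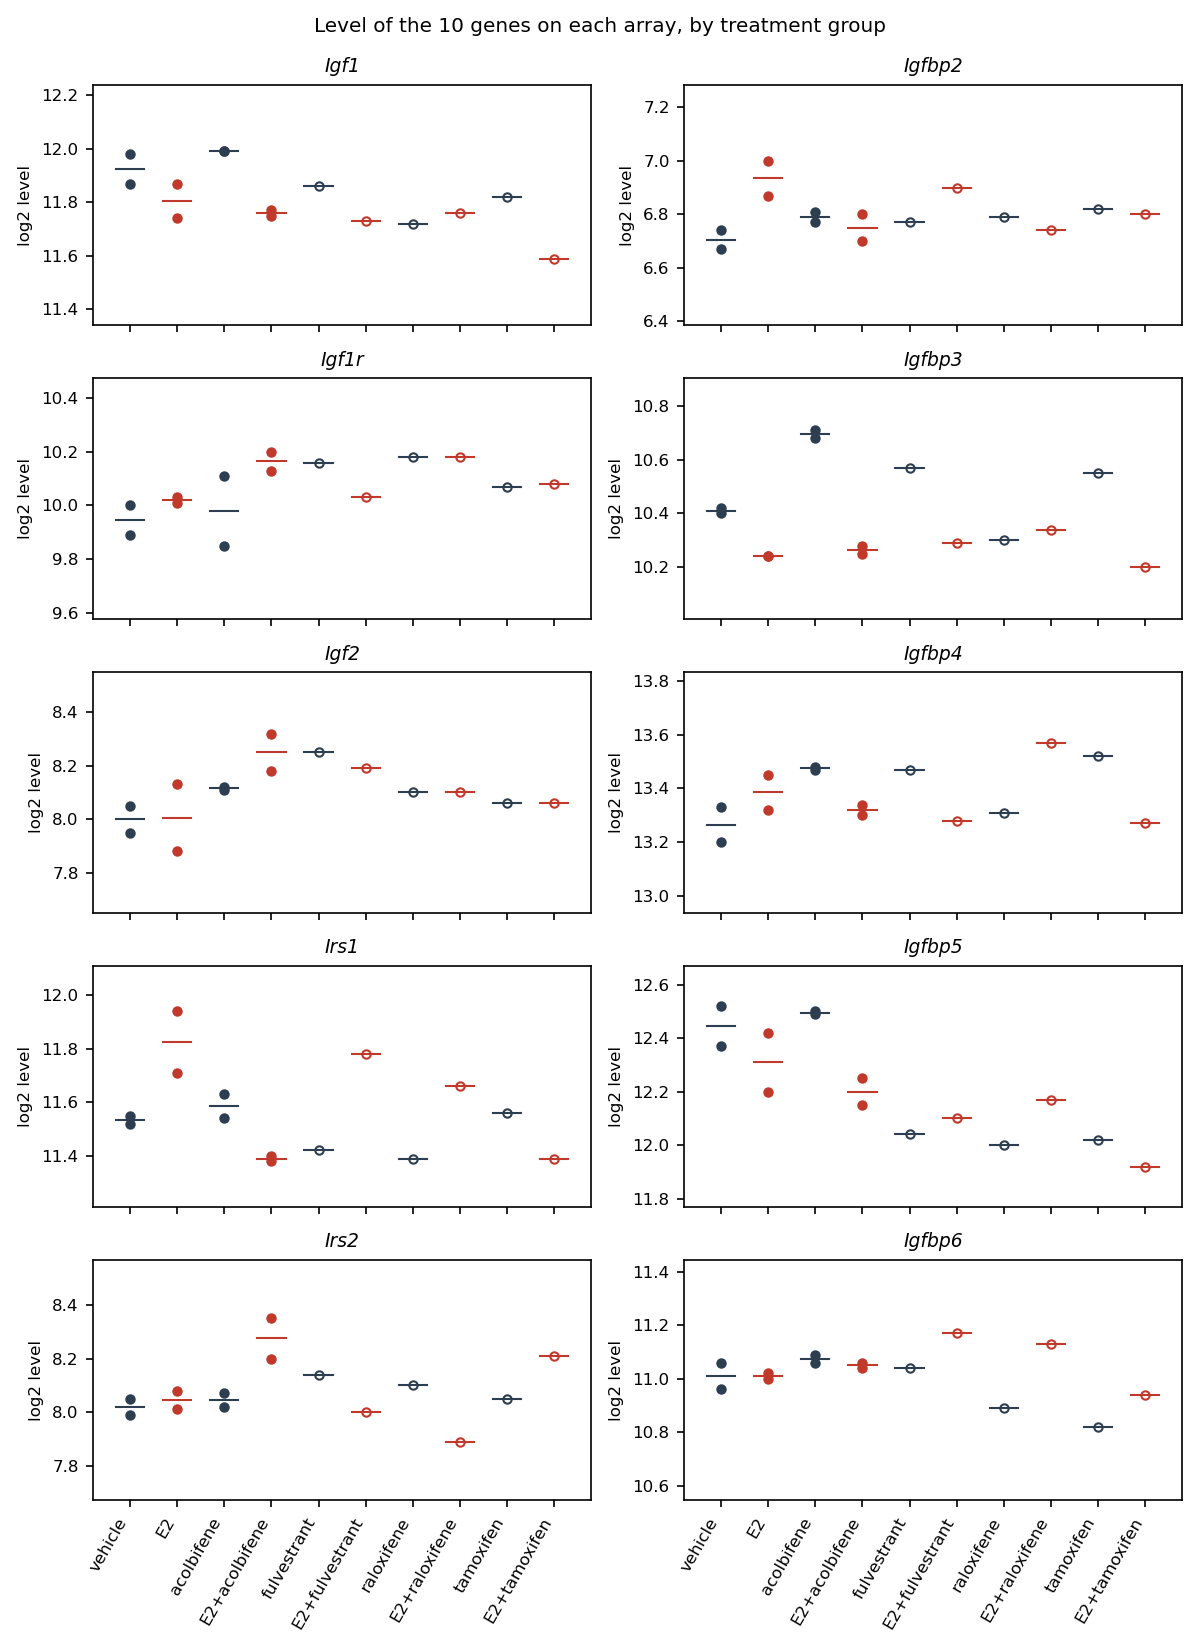
Log2 level of each of the 10 genes (probe set with the highest mean) on each array, by treatment group; points are arrays, filled where a group had 2 and open where it had 1, lines are group means, and red marks groups given E2. Every panel spans the same height on the log2 scale. Igfbp3 was highest on the 2 acolbifene arrays (10.71 and 10.68), and Irs1 on E2 array 2 (11.94).

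Across the 10 groups the IGF genes moved little. The range of the 10 group means ran from 0.23 (Igf1r and Igfbp2) to 0.57 (Igfbp5) on the log2 scale, with a median of 0.37, against 0.38 over all 18193 genes. In 8 of the 10 the range exceeded the largest gap within a pair of arrays, as it did in 88.7% of all genes. A range of at least 0.5 was reached by Igfbp5 alone, 1 of 10, against 21.1% of all genes. In the order of its 10 group means, no step between neighbouring groups exceeded the largest gap within a pair for 9 of the 10 genes, so neighbours in those orders do not differ beyond the spread; Igfbp3 was the exception, with 5 of 9 steps above its largest pair gap of 0.03.

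E2 alone called 0 of the 10 genes against vehicle after 3 h (limma, Benjamini-Hochberg adjusted p under 0.05 over all 45037 probe sets, of which 3.74% were called, 2.07% higher and 1.67% lower). At an unadjusted p under 0.05 there were 2, Irs1 and Igfbp2, both higher after E2. The arrays of the 2 groups did not overlap for 4 of the 10 genes, Igf1r, Irs1, Igfbp2 and Igfbp3, against 52.1% of all probe sets. The median difference was 0.02 over the 10 genes and -0.02 over all genes, and the 95% intervals of the 10 lay between -0.35 and 0.50. With a prior variance that follows the level, limma called 1 of the 10, Irs1, and 6.04% of all probe sets.

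Irs1, the adaptor that carries the receptor's signal to PI3K, was the member called between E2+acolbifene and E2. Its level was 11.52 and 11.55 on the vehicle arrays, 11.71 and 11.94 after E2, 11.63 and 11.54 after acolbifene, and 11.38 and 11.40 after E2+acolbifene. Both E2 arrays lay above all other arrays of these 4 groups and both E2+acolbifene arrays below. Irs1 fell with E2+acolbifene against E2, by 0.44 on the log2 scale (1.35-fold, SE 0.10, 95% interval -0.65 to -0.22, 2 arrays a group, limma adjusted p = 0.0378). The difference between E2 and vehicle was 0.29 ± 0.10 (SE, interval 0.08 to 0.50, adjusted p = 0.129, and 0.0278 with the level-dependent prior). The acolbifene effect with E2 minus that without was -0.48 ± 0.14 (interval -0.78 to -0.18, adjusted p = 0.0661).

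Irs1 was the 1 member of 10 called in E2+acolbifene against E2, where 3.66% of all probe sets were called, 1.63% higher and 2.03% lower. At an unadjusted p under 0.05 there were 3, Igf2, Irs1 and Irs2. The call was lost when the fit had a term for the raw-file code (-0.55, adjusted p = 0.0538), where E2 array 1 is the 1 array of the 8 with R136, and without any 1 of its 4 arrays. Without E2 array 1 the difference was -0.55 (adjusted p = 0.0538), without E2 array 2 -0.32 (0.215), without E2+acolbifene array 1 -0.42 (0.109) and without array 2 -0.45 (0.161). Over all probe sets at a mean level of 11 to 12, where Irs1 lies, the median difference of the same comparison was -0.10, and after the deposited values were quantile normalized again that of Irs1 was -0.33 (adjusted p = 0.0708). Skeletal muscle markers also moved: the mean level of the 16 markers was 9.02 and 10.12 on the E2 arrays and 10.31 and 10.20 on the E2+acolbifene arrays, with 2 of 16 called higher in the latter and none dim. Their part in the result was not tested. In bulk tissue, fewer cells of a type and less RNA per cell cannot be told apart.

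On the single arrays Irs1 was 11.78 with E2+fulvestrant, 11.66 with E2+raloxifene, 11.39 with E2+tamoxifen, 11.42 with fulvestrant, 11.39 with raloxifene and 11.56 with tamoxifen. The array labelled E2+fulvestrant lay between the 2 E2 arrays, and that of E2+tamoxifen at the level of E2+acolbifene. The order of group means was E2, E2+fulvestrant, E2+raloxifene, acolbifene, tamoxifen, vehicle, fulvestrant, E2+tamoxifen, raloxifene and E2+acolbifene, and no step in it exceeded 0.12, against a gap of 0.23 within the E2 pair.

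**Figure D2:**
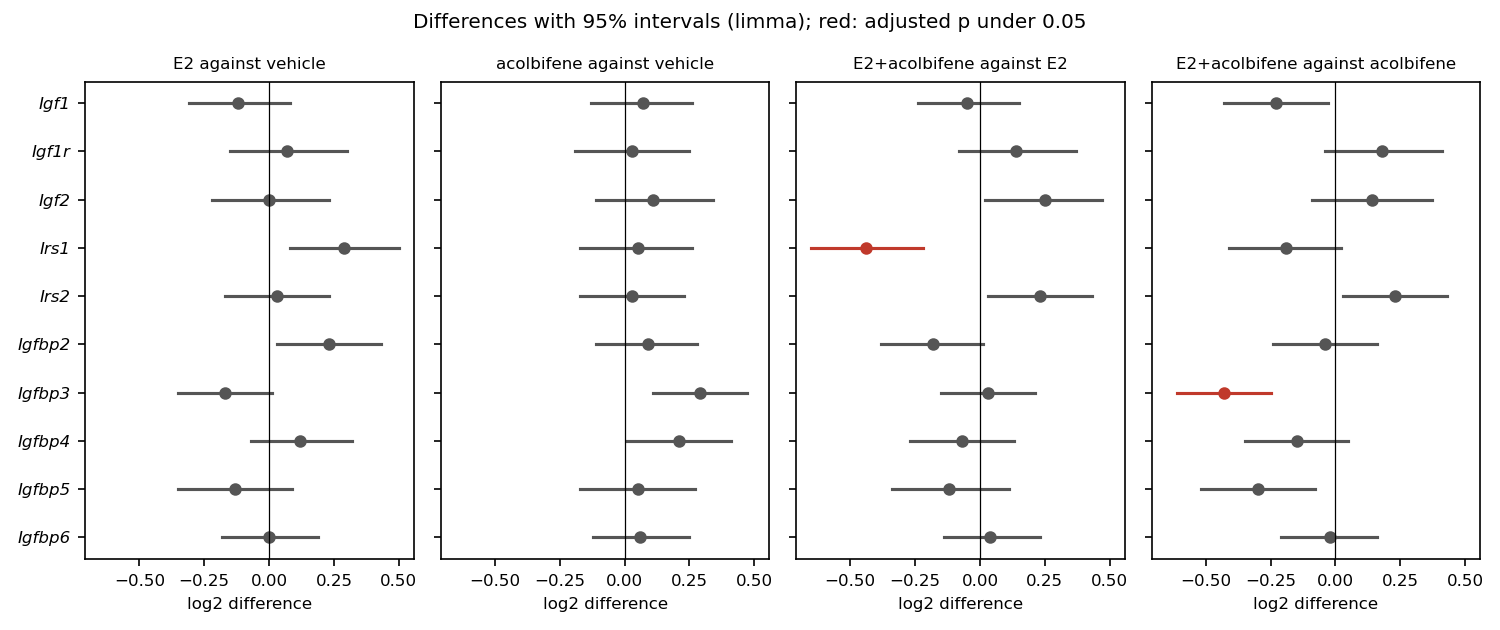
Log2 difference (points) with its 95% interval (lines, limma, 8 arrays) for the 10 genes in 4 comparisons; red marks an adjusted p under 0.05. Irs1 was called in E2+acolbifene against E2 (-0.44), and Igfbp3 in E2+acolbifene against acolbifene (-0.43).

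Irs2, the second substrate, took another order. Its level was 7.99 and 8.05 on the vehicle arrays, 8.08 and 8.01 after E2, 8.07 and 8.02 after acolbifene, and 8.35 and 8.20 after E2+acolbifene. Both E2+acolbifene arrays lay above the other 6. The difference was 0.26 against vehicle (adjusted p = 0.165), 0.23 against E2 (0.15) and 0.23 against acolbifene (0.116), so none passed. Among the single arrays Irs2 ran from 7.89 with E2+raloxifene to 8.21 with E2+tamoxifen. Over the 10 group means Irs1 and Irs2 had a Pearson correlation of -0.70, a description of means that share arrays.

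Igf1, the ligand made by stromal cells and raised by growth hormone, stood at 11.87 and 11.98 on the vehicle arrays, 11.74 and 11.87 after E2, 11.99 on both acolbifene arrays, and 11.75 and 11.77 after E2+acolbifene. The E2+acolbifene pair lay below both the vehicle and the acolbifene pair, while the E2 and vehicle pairs met. The difference between E2 and vehicle was -0.12 at this probe set (interval -0.31 to 0.08, adjusted p = 0.504) and -0.21, -0.23 and -0.07 at the others (0.235, 0.152 and 0.76). E2+acolbifene was 0.23 below acolbifene on the log2 scale (difference -0.23, interval -0.43 to -0.03, adjusted p = 0.113), with -0.13, 0.03 and -0.19 at the other probe sets. Single arrays ran from 11.59 with E2+tamoxifen to 11.86 with fulvestrant.

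Igf2, the second ligand, which is imprinted, was measured by 2 probe sets of different brightness. The brighter one was at 8.05 and 7.95 on the vehicle arrays, 7.88 and 8.13 after E2, 8.11 and 8.12 after acolbifene, and 8.18 and 8.32 after E2+acolbifene. The E2+acolbifene arrays were the highest of the 8, with differences of 0.25 against E2 (adjusted p = 0.172), 0.25 against vehicle (0.221) and 0.14 against acolbifene (0.395). The other probe set was dim, with a mean of 5.72, and was at 5.03 and 5.55 after acolbifene against 5.78 and 6.02 after E2+acolbifene. It was called higher there, by 0.61 (SE 0.16, interval 0.26 to 0.96, adjusted p = 0.0405), and the median of all probe sets below a level of 6 was also higher in this comparison, by 0.07. The bright probe set was not called.

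Igf1r, the receptor, was at 9.89 and 10.00 on the vehicle arrays, 10.01 and 10.03 after E2, 10.11 and 9.85 after acolbifene and 10.20 and 10.13 after E2+acolbifene. Vehicle was its lowest group and raloxifene its highest (10.18). The acolbifene arrays were 0.26 apart, more than the range of 0.23 over all group means. E2 against vehicle gave 0.07 (interval -0.15 to 0.30, adjusted p = 0.739), and E2+acolbifene against vehicle 0.22 (-0.01 to 0.44, 0.268). The 4 other probe sets of Igf1r had differences between -0.17 and -0.02 for E2 against vehicle.

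Igfbp3, the main carrier of IGF in blood, was the member called between E2+acolbifene and acolbifene. Its level was 10.40 and 10.42 on the vehicle arrays, 10.24 on both E2 arrays, 10.71 and 10.68 after acolbifene, and 10.28 and 10.25 after E2+acolbifene. At this probe set the 4 pairs did not overlap, and the arrays of a pair were at most 0.03 apart. The share of all probe sets with 4 such pairs was not counted. At the second Igfbp3 probe set the vehicle arrays (9.87 and 10.00) overlapped those of E2 (10.06 and 9.93) and of E2+acolbifene. The difference of E2+acolbifene from acolbifene was -0.43 ± 0.08 (SE, 1.35-fold, interval -0.61 to -0.25, limma adjusted p = 0.019). The second probe set, at 10.22 and 10.20 after acolbifene and 9.88 and 9.83 after E2+acolbifene, gave -0.36 (adjusted p = 0.038).

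In that comparison Igfbp3 was the 1 member of 10 that passed, where 9.2% of all probe sets were called, 3.52% higher and 5.67% lower. At an unadjusted p under 0.05 there were 4, Igf1, Irs2, Igfbp3 and Igfbp5. Acolbifene against vehicle gave 0.29 for Igfbp3 (interval 0.11 to 0.47, adjusted p = 0.136, and 0.0262 with the level-dependent prior) and 0.28 at the second probe set (0.177). E2 against vehicle gave -0.17 (interval -0.35 to 0.01, adjusted p = 0.281) and 0.06 at the second probe set (0.769), so the 2 probe sets had opposite signs there. E2+acolbifene and E2 were 0.03 apart (interval -0.15 to 0.21).

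The E2+acolbifene arrays also had a narrower spread than the acolbifene arrays, and its part in this result was not tested. The median of all probe sets at a level of 10 to 11 was -0.20 in E2+acolbifene against acolbifene, and after a second quantile normalization Igfbp3 gave -0.25 (adjusted p = 0.101). Without acolbifene array 1 it was -0.42 (0.0963), without acolbifene array 2 -0.44 (0.0536), without E2+acolbifene array 1 -0.45 (0.0634) and without array 2 -0.42 (0.132). Fibroblast and matrix markers were lower too: 8 of 15 were called lower, with a median of -0.32, and their mean level was 12.14 and 12.10 on the acolbifene arrays against 11.80 and 11.73 on the E2+acolbifene arrays. Of 12 macrophage markers, 9 were called lower, with a median of -0.44 and mean levels of 11.42 and 11.38 against 10.96 and 10.96. Skeletal muscle markers went the other way, with 3 of 16 called higher (median 0.71), as did those of keratinocytes, with 5 of 9 called higher (median 0.47). No fibroblast, macrophage or muscle marker was dim, and 3 of the keratinocyte markers were. Their part in the result was not tested.

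**Figure D3:**
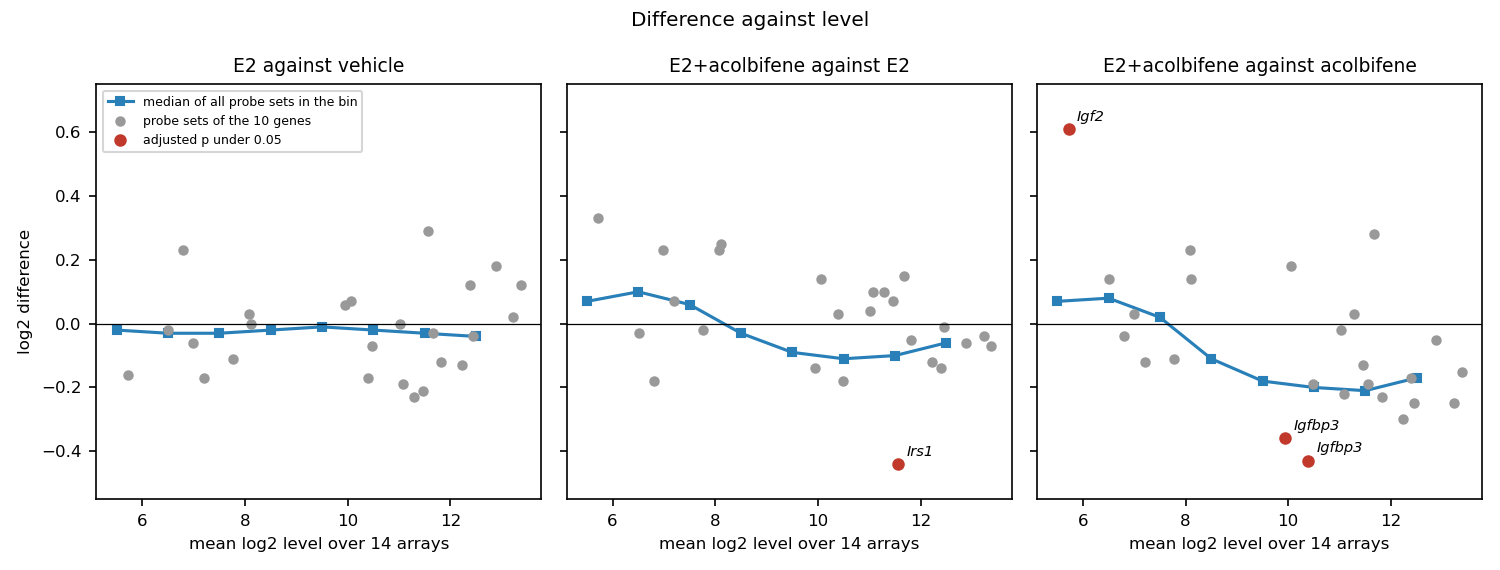
Log2 difference against mean log2 level over 14 arrays in 3 comparisons; grey and red points are the 25 probe sets of the 10 genes (red for an adjusted p under 0.05), and blue squares are medians of all probe sets in bins of 1 log2 unit, with the open-ended bins at the outer ends. In E2+acolbifene against acolbifene the blue line fell to -0.21 at levels of 11 to 12, and both Igfbp3 probe sets lay below it.

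On the single arrays Igfbp3 was 10.57 with fulvestrant, 10.55 with tamoxifen and 10.30 with raloxifene, and 10.29 on the array labelled E2+fulvestrant, 10.20 with E2+tamoxifen and 10.34 with E2+raloxifene. The array with E2 was lower for fulvestrant and tamoxifen and not for raloxifene. The E2 difference was thus -0.17 without a blocker, -0.43 with acolbifene, -0.28 with fulvestrant, -0.35 with tamoxifen and 0.04 with raloxifene, 4 of 5 below 0 in settings that share no array. Medians of all probe sets at a level of 10 to 11 were -0.02, -0.20, 0.02, -0.12 and 0.06 in the same order of settings. At the second Igfbp3 probe set the E2 difference was 0.06, -0.36, 0.01, -0.68 and -0.18, 3 of 5 below 0. In limma the E2 difference with fulvestrant had an adjusted p of 0.646 and that with tamoxifen 0.405.

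Igfbp5, the binding protein of mammary regression, had the widest range of the 10. Its level was 12.37 and 12.52 on the vehicle arrays, 12.20 and 12.42 after E2, 12.49 and 12.50 after acolbifene, and 12.25 and 12.15 after E2+acolbifene. At this probe set the 6 single arrays, from 11.92 with E2+tamoxifen to 12.17 with E2+raloxifene, were below both arrays of vehicle, E2 and acolbifene. This held whether or not E2 was given. The single arrays carry the raw-file code R136, as does E2 array 1, which was 0.22 below E2 array 2. E2+acolbifene was 0.30 below acolbifene (difference -0.30, interval -0.52 to -0.08, adjusted p = 0.0772). The second Igfbp5 probe set was at 11.40 and 11.57 after acolbifene and 11.74 and 11.79 after E2+acolbifene. It gave 0.28 in the same comparison (0.08 to 0.49, limma adjusted p = 0.0767), so the 2 probe sets had opposite signs and neither passed. Single arrays at the second probe set ran from 11.64 with E2+raloxifene to 11.89 with raloxifene. None of them was below both arrays of vehicle (11.70 and 11.59), E2 or acolbifene.

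**Figure D4:**
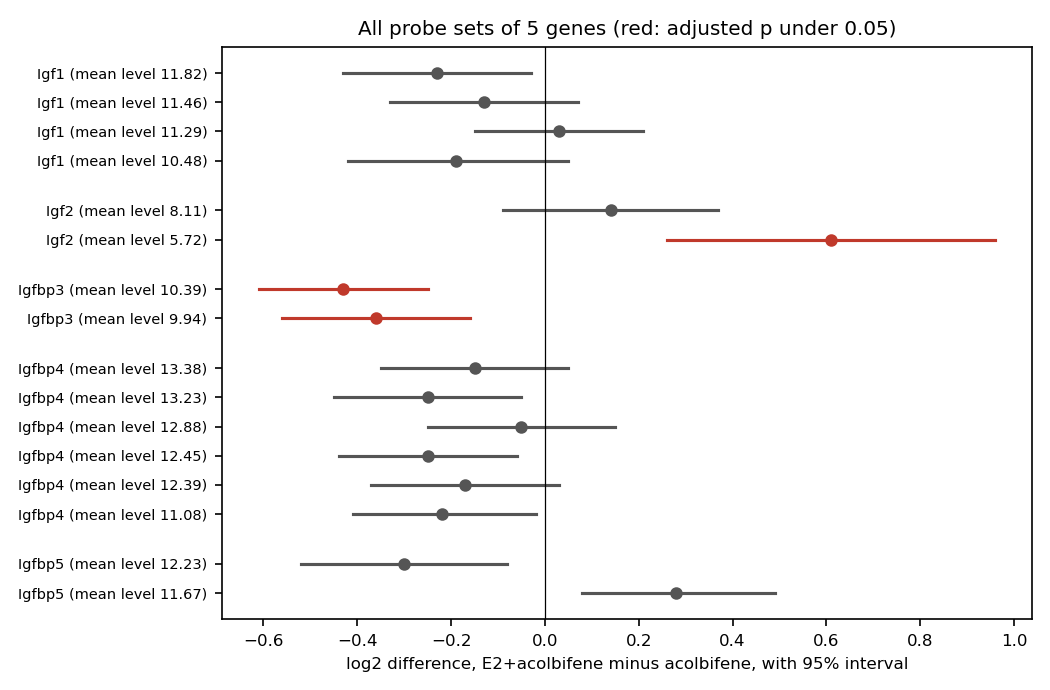
Log2 difference of E2+acolbifene minus acolbifene with its 95% interval (limma) at every probe set of 5 genes, labelled by the mean log2 level of the probe set; red marks an adjusted p under 0.05. Both Igfbp3 probe sets were lower (-0.43 and -0.36), the 6 of Igfbp4 lay between -0.25 and -0.05, and the 2 of Igfbp5 had opposite signs (-0.30 and 0.28).

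Igfbp4, known chiefly as an inhibitor of IGF action, was at 13.20 and 13.33 on the vehicle arrays, 13.32 and 13.45 after E2, 13.47 and 13.48 after acolbifene, and 13.34 and 13.30 after E2+acolbifene. At this probe set the acolbifene arrays were the highest of these 8. That did not hold at every probe set: at another one, E2 array 2 was at 12.99, above the acolbifene arrays at 12.89 and 12.94. All 6 probe sets were higher after acolbifene than after vehicle, by 0.12 to 0.23, and lower after E2+acolbifene than after acolbifene, with differences of -0.25 to -0.05, and none passed (the smallest adjusted p was 0.244 and 0.0895). Single arrays ran from 13.27 with E2+tamoxifen to 13.57 with E2+raloxifene.

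Igfbp2, a binding protein that favours IGF2, was at 6.74 and 6.67 on the vehicle arrays and 6.87 and 7.00 after E2, close to the dim level. The E2 arrays did not overlap the vehicle arrays (difference 0.23, interval 0.03 to 0.43, adjusted p = 0.187). After acolbifene it was at 6.81 and 6.77 and after E2+acolbifene at 6.80 and 6.70, and the single arrays ran from 6.74 to 6.90. Igfbp6, which also favours IGF2, was the steadiest of the 10 in the 4 replicated groups, from 10.96 to 11.09 over their 8 arrays. E2 against vehicle gave 0.00 for Igfbp6 (interval -0.18 to 0.19), and its single arrays ran from 10.82 with tamoxifen to 11.17 with E2+fulvestrant.

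Acolbifene alone called 0 of the 10 genes against vehicle (0.597% of all probe sets were called, 0.406% higher), and all 10 differences were above 0, with a median of 0.06 against 0.03 over all genes. Of the 9316 genes at a mean level of 8 or more, where all members but Igfbp2 lie, 67.0% were above 0, with a median of 0.07. At an unadjusted p under 0.05 there were 2, Igfbp3 and Igfbp4, and the level-dependent prior called 1, Igfbp3, with 3.19% of all probe sets. The arrays did not overlap for 5 genes, Igf1, Igf2, Igfbp2, Igfbp3 and Igfbp4, against 46.8% of all probe sets. Against vehicle, E2+acolbifene also called 0 of 10 in limma (0.837% of all probe sets, 0.453% higher), with 3 at an unadjusted p under 0.05, Igf2, Irs2 and Igfbp5, and 0 with the level-dependent prior (3.85% of all probe sets). The arrays did not overlap for 7 of 10 genes (52.6% of all probe sets). They did not overlap for 7 of 10 in E2+acolbifene against E2 (58.2%) and for 8 of 10 in E2+acolbifene against acolbifene (58.4%).

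The difference of the acolbifene effects with and without E2 called 0 of the 10 in limma (4.47% of all probe sets, 1.55% above and 2.92% below 0), with 2 at an unadjusted p under 0.05, Irs1 and Igfbp3. The median was -0.14 over the 10 genes and -0.02 over all genes. Leaving out dim probe sets, or the level-dependent prior, called 1 of the 10, Irs1 (adjusted p = 0.0407 and 0.0106), where 11% and 9.27% of all probe sets were called.

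The E2 difference of each gene could be set side by side for 5 settings that share no array, with no blocker and with each of the 4 blockers. For Irs1 it was 0.29 with no blocker, 0.36 with fulvestrant, by the array labelled E2+fulvestrant, and 0.27 with raloxifene, and it was -0.19 with acolbifene and -0.17 with tamoxifen. At levels of 11 to 12, where Irs1 and Igf1 lie, medians of all probe sets were -0.21 with acolbifene and -0.17 with tamoxifen. They were -0.03 with no blocker, 0.02 with fulvestrant and 0.10 with raloxifene. After a second quantile normalization Irs1 was at 11.46 with acolbifene and 11.46 with E2+acolbifene. It was then at 11.56 with tamoxifen and 11.57 with E2+tamoxifen. For Irs2 the E2 difference was 0.03 with no blocker, -0.14 with fulvestrant, -0.21 with raloxifene, 0.23 with acolbifene and 0.17 with tamoxifen. Igf1 was lower with E2 in 4 of the 5 settings, by 0.12 to 0.23 (differences -0.12, -0.23, -0.13 and -0.22), and 0.03 higher with raloxifene. Its differences with acolbifene and tamoxifen (-0.23 and -0.22) stand beside the medians of -0.21 and -0.17 at that level. After the second normalization Igf1 was at 11.89 with acolbifene, 11.83 with E2+acolbifene, 11.80 with tamoxifen and 11.75 with E2+tamoxifen. At its other probe sets, from the brightest to the dimmest, the difference was below 0 in 5, 2 and 5 of the 5 settings. For Igfbp4 the E2 difference was 0.12 with no blocker and 0.26 with raloxifene, and -0.15, -0.19 and -0.25 with acolbifene, fulvestrant and tamoxifen. The 5 other Igfbp4 probe sets had the same signs with each of the blockers, and without one 2 of them were below 0 (-0.04 and -0.19). At levels of 12 and above, medians of all probe sets were -0.17 with acolbifene, -0.23 with tamoxifen and 0.16 with raloxifene. The signs with these blockers were thus also those of bright probe sets in general. With fulvestrant the median at these levels was -0.02. Pgr gave 2.76, 1.01, 2.67, 0.67 and 1.01 for no blocker, acolbifene, fulvestrant, raloxifene and tamoxifen. Its level was 9.41 with raloxifene and 9.57 with tamoxifen alone, above the vehicle arrays at 8.05 and 7.57. It was 10.07 with E2+raloxifene and 10.59 with E2+tamoxifen. The smaller Pgr differences with these blockers thus start from a higher level without E2.

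**Figure D5:**
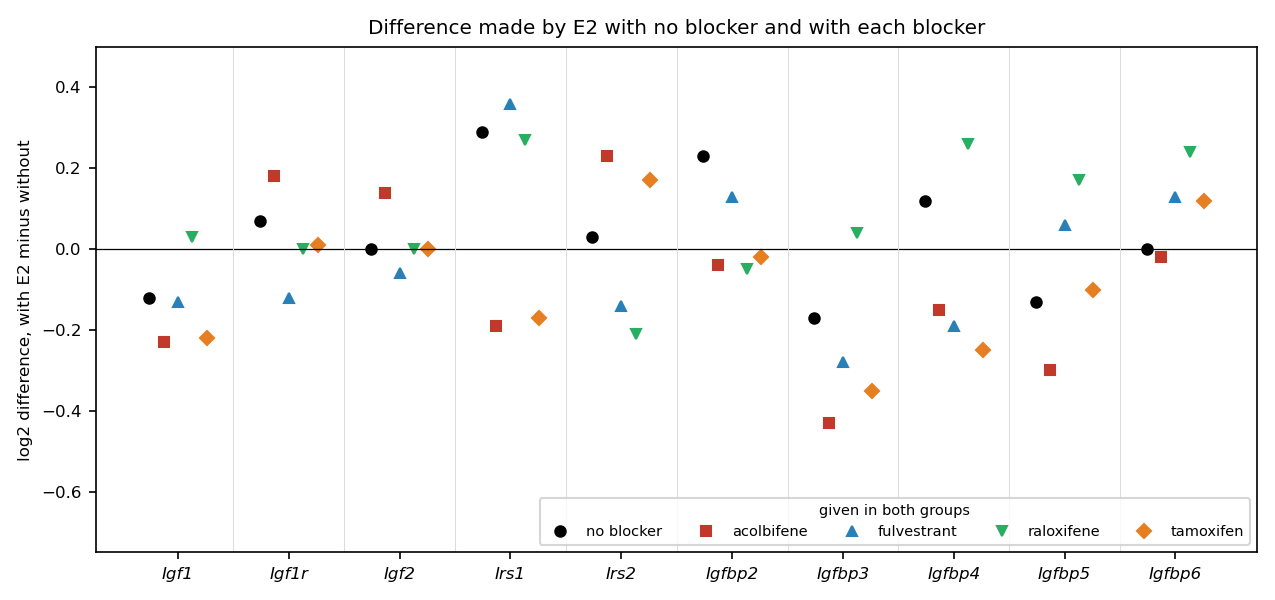
Log2 difference between the group with E2 and the group without, for each of the 10 genes, with no blocker and with each blocker given in both groups; means of 2 arrays for no blocker and acolbifene, single arrays for the rest, with no error bar for the latter. Irs1 lay at 0.27 to 0.36 with no blocker, fulvestrant or raloxifene, and at -0.19 and -0.17 with acolbifene and tamoxifen. The medians of all probe sets at its level were -0.21 and -0.17 with acolbifene and tamoxifen. After a second quantile normalization Irs1 was at 11.46 with acolbifene and 11.46 with E2+acolbifene. It was then at 11.56 with tamoxifen and 11.57 with E2+tamoxifen.

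The blockers were compared with each other in these E2 differences by 6 tests added after the data were seen, with 0 of 10 called in each by limma and 13 of 60 member tests at an unadjusted p under 0.05, against 10.2% of the tests of all probe sets. The shares of all probe sets called were 0.258% for acolbifene against fulvestrant, 0.269% for acolbifene against raloxifene, 0.0377% for acolbifene against tamoxifen, 0.0111% for fulvestrant against raloxifene, 0.0289% for fulvestrant against tamoxifen and 0.00222% for raloxifene against tamoxifen. The Irs1 difference was -0.55 for acolbifene minus fulvestrant (interval -0.88 to -0.22, adjusted p = 0.186), -0.46 for acolbifene minus raloxifene (-0.80 to -0.13, 0.206) and 0.53 for fulvestrant minus tamoxifen (0.14 to 0.91, 0.681). These intervals lie on one side of 0 and the adjusted p-values do not pass. Igfbp4 differed by 0.51 for raloxifene minus tamoxifen (0.11 to 0.91, adjusted p = 0.507). With the level-dependent prior, 5 of the 6 tests called between 1 and 4 members. Under that prior 4 were called for acolbifene against raloxifene (6.42% of all probe sets), 2 for acolbifene against fulvestrant (4.09%), and 1 each for fulvestrant against raloxifene (0.835%), fulvestrant against tamoxifen (0.699%) and raloxifene against tamoxifen (1.69%).

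The 15 comparisons with a single array called 0 of the 10 genes each in limma. At an unadjusted p under 0.05 there were 12 of 150 member tests, against 6.57% of the tests of all probe sets. The level-dependent prior called 1 gene in each of 3 comparisons, E2+fulvestrant against fulvestrant (1.61% of all probe sets under it), E2+fulvestrant against E2+tamoxifen (0.353%) and E2+raloxifene against E2+tamoxifen (2.06%). The fit took all 14 arrays and a term for the raw-file code, and assumes that a lone array varies as much as the pairs do; the median half-width of the 95% interval was 0.37 against vehicle and 0.28 elsewhere. Against vehicle, 0.153% of all probe sets were called for fulvestrant, 0.00888% for raloxifene and 0.0111% for tamoxifen. The largest member difference was that of Igf2 for fulvestrant, 0.50 (interval 0.11 to 0.88, adjusted p = 0.825). The levels themselves were 8.25 with fulvestrant and a mean of 8.00 with vehicle, a smaller gap than in the fit with the code term.

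With E2 given in both groups, 0.0222% of all probe sets were called for E2+fulvestrant against E2, 0.0955% for E2+raloxifene and 0.0133% for E2+tamoxifen, comparisons that rest on E2 array 1. Irs1 in E2+tamoxifen had the smallest adjusted p of the 10 genes, with a difference of -0.32 (interval -0.59 to -0.04, adjusted p = 0.299). The same gene differed from E2 by 0.07 with E2+fulvestrant (-0.20 to 0.34) and by -0.05 with E2+raloxifene (-0.32 to 0.23). Against the blocker alone the shares called were 0.384% with E2+fulvestrant, 0.0333% with E2+raloxifene and 0.18% with E2+tamoxifen.

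Between blockers, 6 pairs of groups were compared: fulvestrant against raloxifene (0.0333% of all probe sets called), fulvestrant against tamoxifen (0.0466%), raloxifene against tamoxifen (0.00222%), and the same pairs with E2 (0.0644%, 0.0289% and 0.102%). Fulvestrant is a steroid, and raloxifene and tamoxifen are nonsteroidal ligands. Igfbp3 was 0.27 higher with fulvestrant than with raloxifene (interval 0.00 to 0.53, adjusted p = 1.0) and 0.02 apart between fulvestrant and tamoxifen (-0.24 to 0.29). With E2, Irs1 was 0.39 higher on the array labelled E2+fulvestrant than with tamoxifen (0.11 to 0.66, adjusted p = 0.458), and Igfbp4 0.30 higher with raloxifene than with tamoxifen (0.02 to 0.59, adjusted p = 0.49).

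The group in which a member was lowest changed with the normalization. E2+tamoxifen was the lowest group for 3 of the 10 genes, Igf1, Igfbp3 and Igfbp5, and for 12 of the 25 probe sets, against 23.7% of all genes. After a second quantile normalization it was the lowest group of 0 members. Vehicle was the lowest group for 4 of the 10, Igf1r, Igf2, Igfbp2 and Igfbp4, against 9.35% of all genes, and for 3 after the second normalization.

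Other genes of the pathway were taken from lists of 84 genes, of which 78 were measured. The lists were chosen with earlier results of these data known, so their shares beside those of all probe sets are descriptions and no test. E2 against vehicle called 9 higher and 2 lower, 14.1% of them, against 3.74% of all probe sets. E2+acolbifene against E2 called 1 higher and 7 lower (10.3% of the list, 3.66% of all), E2+acolbifene against acolbifene 3 higher and 12 lower (19.2%, 9.2% of all), and acolbifene and E2+acolbifene against vehicle 2 higher and 0 lower each (2.56% of the list, 0.597% and 0.837% of all). The difference of the acolbifene effects called 0 above and 11 below 0 (14.1% of the list, 4.47% of all probe sets and 2.92% below 0). The median difference over the 78 genes was -0.01 for E2 and -0.14 for E2+acolbifene against acolbifene.

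In E2 against vehicle, 3 of 11 basal epithelium markers were called higher (median 0.23), and 2 of 12 macrophage markers (median -0.20) and 2 of 11 lymphocyte markers (median -0.14) were called lower. Adipocyte markers had 1 of 11 higher and 2 lower, fibroblast markers 1 of 15 higher and 1 lower, and luminal markers 1 of 10 higher and 1 lower. In skeletal muscle 1 of 16 was higher, and in brown adipocytes 1 of 7 lower. Over all probe sets, dim ones included, 2.07% were called higher and 1.67% lower. The part of the marker genes in the changes of the pathway lists was not tested.

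Upstream of Igf1, 3 of 6 genes of growth hormone receptor signalling passed for E2. Stat5a, the factor that carries the growth hormone and prolactin signal to the nucleus, was at 10.34 and 10.25 on the vehicle arrays and 11.17 and 10.99 after E2. It rose by 0.79 (SE 0.09, limma adjusted p = 0.0012) and fell by 0.51 with E2+acolbifene against E2 (adjusted p = 0.0237). The feedback inhibitor Socs2 rose by 0.57 (adjusted p = 0.0044), and Cish, another STAT5 target, fell by 0.61 (adjusted p = 0.00741). Socs2 was called at 4 of its 6 probe sets.

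Among 16 adaptors and feedback genes of the receptor, 2 rose with E2. Socs3, which blocks cytokine signalling and also binds IRS proteins, was at 9.38 and 9.64 on the vehicle arrays and 10.89 and 10.84 after E2, a rise of 1.36 (SE 0.11, adjusted p = 6.25e-05). It was at 9.68 and 9.85 with E2+acolbifene, a fall of 1.10 on the log2 scale against E2 (difference -1.10, adjusted p = 0.000945). Trib3, a stress-induced pseudokinase that binds AKT, rose by 0.90 (adjusted p = 0.00366). In E2+acolbifene against acolbifene, the adaptors Sos1 and Sh2b2 fell by 0.40 and 0.46 (adjusted p = 0.0463 and 0.0171). Sos1 was called at 1 of its 5 probe sets and Sh2b2 at 2 of 2. Medians of all probe sets in this comparison were -0.11 at a level of 8 to 9 and -0.18 at 9 to 10.

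Of 22 genes of PI3K, AKT and mTOR, 3 passed for E2: Inppl1, a lipid phosphatase that acts on the product of PI3K (0.49, adjusted p = 0.0157), Ddit4, an inhibitor of mTOR (0.86, 0.00065), and Pik3r2, a regulatory PI3K subunit (-0.41, 0.0231). Ddit4 was also higher after acolbifene (0.77, adjusted p = 0.0061) and E2+acolbifene (0.82, 0.00326). E2+acolbifene against acolbifene called 6 of the 22 lower, Pik3cb, Pik3r1, Pik3r3, Akt2, Inppl1 and Phlpp1, from -0.59 for Pik3r1 to -0.32 for Pik3r3, and 0 higher. Akt2 was called at 1 of its 3 probe sets and Pik3r1 at 2 of 4. Medians of all probe sets in this comparison were -0.11 at a level of 8 to 9 and -0.21 at 11 to 12. The part of the narrower spread of the E2+acolbifene arrays in this count was not tested.

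Of 13 FOXO factors and genes that they raise, Pdk4 (1.03, adjusted p = 0.00351), Bcl6 (0.58, 0.00498) and Pck1 (0.60, 0.0039) rose with E2. Bcl6 fell by 0.55 and Bcl2l11 by 0.54 with E2+acolbifene against E2 (adjusted p = 0.0145 and 0.0359). Bcl6 was called at 1 of its 2 probe sets in each comparison, Pck1 at 2 of 3 and Bcl2l11 at 3 of 5. Of 12 proteases that cut IGFBPs and their inhibitors, Adam12 was 0.68 higher after acolbifene than after vehicle (adjusted p = 0.0175). In E2+acolbifene against acolbifene Mmp2 fell by 0.39 and Mmp3 by 0.47 (adjusted p = 0.029 and 0.0192), and Pappa, a protease of IGFBP4, rose by 0.55 (0.0384) at a dim probe set. Adam12 was called at 1 of its 2 probe sets and Pappa at 1 of 3. Of 9 other receptors, carriers and mRNA-binding proteins none was called for E2, and Igfbp1, at a dim probe set, was 0.44 higher with E2+acolbifene than with E2 (adjusted p = 0.0481).

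For the 3 members with the widest range, the genes with the most similar group means were found among 2597 genes above the median level with a range of at least 0.5. For Igfbp5 they were Gatad2b, Dnajc7 and Ogt, with Pearson correlations of 0.98, 0.97 and 0.97 over 10 group means. Like the brighter Igfbp5 probe set, these 3 were lower on the fulvestrant and E2+fulvestrant arrays than with vehicle, E2 and acolbifene. The fulvestrant and E2+fulvestrant arrays carry the code R136. Gatad2b was at 9.41 and 9.47 against 9.73, 9.68 and 9.84. The part of the code was not tested. The second Igfbp5 probe set was lowest with acolbifene (11.49), where the first was highest (12.50). For Igfbp3 the most similar genes were Fam13a, Cyp1b1 and Stxbp6 (0.93, 0.90 and 0.89), and for Irs1 Gucy1b1, Mex3c and Ergic2 (0.92, 0.90 and 0.90). Among the members themselves the highest correlations were those of Igf1 with Igfbp3 and with Igfbp5, both 0.80. The group means share the same 14 arrays, so these values are descriptions.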

How the data were processed

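RNA of pooled mammary glands was hybridized to 14 arrays of 10 groups. The label text names the Murine U74Av2 array, whereas the table's probe sets are those of another mouse array, for which GEO's annotation was used. The authors deposited log2 values, for which the submitters' processing notes name RMA. The RMA version and the doses of the blockers: not given in the sources used here.

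Of 45101 probe sets, 64 controls were left out and 45037 tested. GEO's platform annotation gave 34945 of them 1 symbol, 932 several and 9160 none, and only the first were named. A gene was represented by its probe set with the highest mean. The tests were made in limma 3.58.1 (R 4.3.3), with Benjamini-Hochberg adjustment over all 45037 and a threshold of 0.05. The 6 comparisons among replicated groups used their 8 arrays with no other term. The 15 comparisons with single arrays, and 6 added after the data were seen, used 14 arrays and a term for the raw-file code, so those with vehicle pass through the E2 arrays. The fit was tested on simulated data. The number of arrays limits the precision. Alternatives were leaving out dim probe sets, a level-dependent prior variance, a second quantile normalization, the raw-file code, all 14 arrays, a replicate block, another probe set and each array left out. Named genes were the 10 members, and from the lists those that passed. The members and lists were chosen with earlier results of these data known.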

Additional observations from a re-analysis of the deposited data

How the results depend on the processing

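Of 689 member values recomputed under the alternatives, 666 kept their direction, where called, and their side of the threshold, 11 passed newly, 12 no longer passed, and no called value changed sign; 47 uncalled ones did. With a second quantile normalization the count of members called fell to 0 in E2+acolbifene against E2 and to 0 in E2+acolbifene against acolbifene, from 1 each. The raw-file code as a term and the replicate block each left 0 in E2+acolbifene against E2. The replicate numbers share only a number, since deviations of same-numbered arrays correlated at -0.12 to 0.12. Leaving out 1 array at a time gave 0 to 0 in both comparisons, in fits that assume the lone array varies like the other groups. Leaving out dim probe sets gave 2 in E2+acolbifene against acolbifene (Igfbp3 and Igfbp5) and 1 in the difference of acolbifene effects (Irs1), and taking the second brightest probe set gave 2 in the former (Igf2 and Igfbp3). The level-dependent prior gave 1 in E2 against vehicle (Irs1), 1 in acolbifene against vehicle (Igfbp3), 3 in E2+acolbifene against acolbifene (Igf1, Igfbp3 and Igfbp5), 1 in the difference of acolbifene effects (Irs1), 1 each in E2+fulvestrant against fulvestrant and against E2+tamoxifen (Irs1), and 1 in E2+raloxifene against E2+tamoxifen (Igfbp4). In the added differences of the E2 effect it gave 2 for acolbifene against fulvestrant, 4 for acolbifene against raloxifene, and 1 each for fulvestrant against raloxifene, fulvestrant against tamoxifen and raloxifene against tamoxifen. The cause of these changes was not tested. With 2 arrays a group at most, the half-width of an interval was 0.20 at the median of the 10 genes in E2 against vehicle, which limits what could be detected.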

Other observations

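One of the dimmer Igf1 probe sets was below both vehicle arrays on all 12 other arrays. It was at 11.44 and 11.52 with vehicle, 11.23 and 11.27 after E2, 11.31 and 11.33 after acolbifene, and 11.35 on both E2+acolbifene arrays, and lowest at 10.96 with E2+tamoxifen. It was the 1 of 25 member probe sets with such a pattern, in either direction, against 6.24% of all probe sets, and the probe set with the highest mean did not show it.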
